A study of Rattus norvegicus with 30 samples.

Results

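Gfap and Vim encode the intermediate filament proteins by which reactive astrocytes are most often recognised. Both were followed here by their identifiers, ENSRNOG00000002919 for Gfap and ENSRNOG00000018087 for Vim, 2 genes of the 32545 listed in each count table. The tissue came from a cervical slice at C3, of which laminae IV to VII were taken on the left and right, in adult female Long Evans rats (Crl:LE). The rats had undergone either sham surgery or an injury of the thoracic cord, called SCI in the group names. The sampled slice lay above the lesion, in the region where hindlimb corticospinal fibres sprout after such an injury, according to the series title. Total RNA depleted of ribosomal RNA was sequenced, 1 library per rat. The 6 groups of 5 rats were sham 1 week, sham 12 weeks, SCI 1 week, SCI 3 weeks, SCI 6 weeks and SCI 12 weeks, named for the time from surgery to dissection. All 30 rats were perfused with heparinised Ringer solution before dissection, and the 5 per group were chosen from larger groups on RNA quality and quantity. How the thoracic cord was injured, and how large each lesion was, were not used here.

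Library totals lay between 6459555 and 37410793 counts. The labels of sham 1 week replicate 1 conflict, since its title names a control and both its surgery and source fields an injury. It was kept as sham by its title, and results are given without it where it decides them. This library also stood apart by a small set of genes. Of 13688 genes with a mean of at least 1 CPM, 25 were highest in it by 2-fold or more over the next library, against at most 3 in any other library and a median of 0. By genes highest in it by any margin, 443, it did not stand apart, since SCI 3 weeks replicate 1 had 1222 and SCI 12 weeks replicate 2 had 1204. The unit of level is CPM, each count divided by its library's total on a fixed scale, with TMM factors that correct for differences in RNA composition. Since only the 2 identifiers could be paired with names here, the labelled tissue was not checked against markers of its other cell types.

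Gfap protein is the main filament protein of mature astrocytes, and its RNA and protein rise when astrocytes respond to nearby damage, which makes it the standard marker of gliosis. Vimentin, the product of Vim, is found in immature and reactive astrocytes, where it assembles with GFAP, and also in endothelial cells, mural cells, fibroblasts, ependymal cells and microglia. In homogenised tissue, fewer or more cells of a type and less or more RNA per cell cannot be told apart.

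The sequences just before the annotated starts are shown to set the start regions of the 2 filament genes side by side, since their levels are compared as a pair further on. The 250 bases before the start of each gene, from RefSeq on GRCr8, matched by symbol, are printed 5′ to 3′ with motif matches in capitals. The stretch for Gfap is chr10:88361662-88361911 on the minus strand, and that for Vim is chr17:81577011-81577260 on the plus strand.
Gfap: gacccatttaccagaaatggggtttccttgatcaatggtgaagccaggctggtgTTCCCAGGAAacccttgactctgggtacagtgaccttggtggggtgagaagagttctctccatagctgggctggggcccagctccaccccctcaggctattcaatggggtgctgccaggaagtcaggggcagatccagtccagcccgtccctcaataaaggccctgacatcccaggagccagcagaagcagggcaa
Vim: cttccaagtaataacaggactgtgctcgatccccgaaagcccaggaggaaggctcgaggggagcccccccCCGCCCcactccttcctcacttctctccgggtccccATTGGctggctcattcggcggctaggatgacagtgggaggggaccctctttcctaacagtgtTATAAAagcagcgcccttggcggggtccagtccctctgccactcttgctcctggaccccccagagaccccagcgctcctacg
Both strands were searched for TATAAA (the TATA box), CCAAT (the CCAAT box), GGGCGG (the GC box), TGANTCA (the AP-1 motif) and for TTC followed by GAA with a gap of 3 or of 4 bases, palindromes of the kind bound by STAT factors. The Gfap stretch held 1 match, to the palindrome with the gap of 4, which 6.25% of 33469 rat promoter stretches of the same length hold. It begins 196 bases before the annotated start. The Vim stretch held 1 match to the TATA box, found in 12.9% of the stretches, 1 to the CCAAT box, found in 34.0%, and 1 to the GC box, found in 30.5%, and no match to the others. The matches did not overlap each other. They describe letters in these windows and are not evidence of binding.

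Gfap was among the genes with the highest mean CPM, which is not corrected for gene length, and its level differed little between the groups. It ranked 45th of 14801 tested genes by mean level, with 1520.3 CPM over the 30 libraries and a range from 1119 to 2273 CPM. In sham 1 week the 5 rats stood at 1517, 1319, 1463, 1616 and 1435 CPM. In SCI 1 week they stood at 1593, 1447, 1930.1, 1829.9 and 1555 CPM, so that 2 injured rats lay above every sham rat of that week and the other 3 within the sham range. The group means were 1470 ± 109 CPM (SD, n = 5) for sham 1 week and 1671 ± 201 for SCI 1 week.

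SCI 3 weeks showed a similar picture, with 1294, 1634, 1887, 1929.6 and 1570.4 CPM and a mean of 1663 ± 259 CPM (SD, n = 5). In SCI 6 weeks the rats had 1496, 1541, 1171, 1339 and 1512 CPM, with a mean of 1412 ± 156. In SCI 12 weeks they had 1532, 1559, 1261, 1525 and 1355 CPM, with a mean of 1447 ± 131. Every injured rat, of the early and the later groups, lay inside the range of all 10 sham rats, 1119 to 2273 CPM. Both limits of that range come from sham 12 weeks.

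The sham 12 weeks rats were at 1244, 1228, 1432, 2273 and 1119 CPM, with a mean of 1459 ± 469 CPM (SD, n = 5). One uninjured rat, replicate 4, thus had the highest Gfap level of all 30 rats, and another, replicate 5, the lowest. In order of their means, the groups ran from SCI 1 week and SCI 3 weeks through sham 1 week, sham 12 weeks and SCI 12 weeks to SCI 6 weeks. Between neighbours in that order the ranges of rats overlapped throughout, and the means differed by less than the smaller SD of the pair in 4 of 5 cases. The exception was SCI 3 weeks against sham 1 week, which differed by 193 CPM with a smaller SD of 109.

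**Figure D1:**
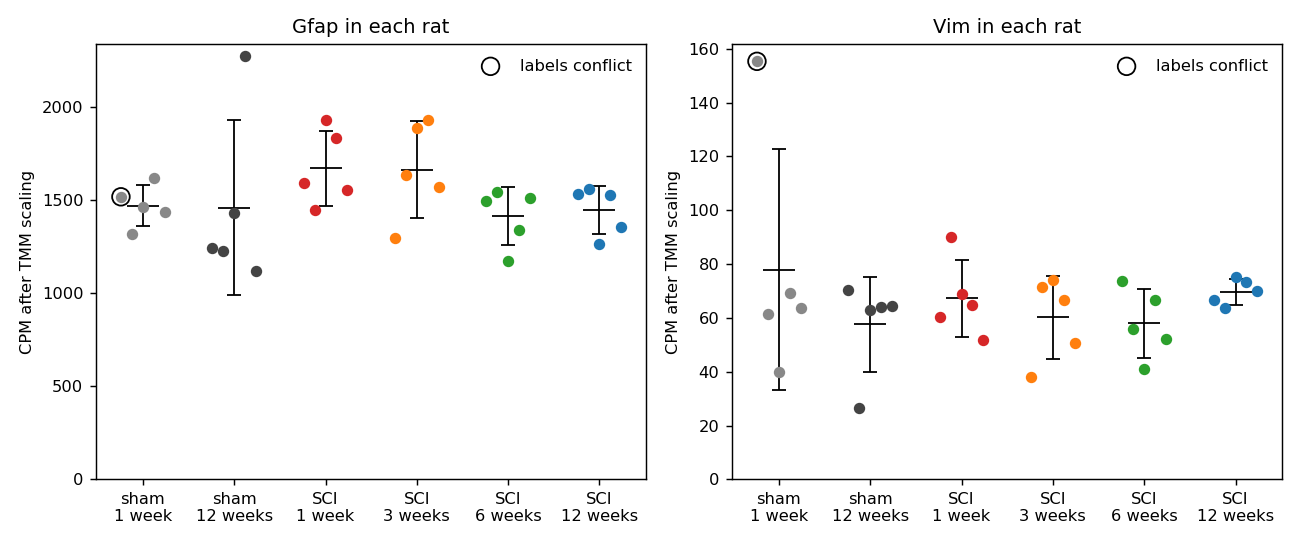
Level of Gfap (left) and Vim (right) in each rat, in CPM after TMM scaling, by group; points are rats in order of replicate number, the horizontal bar is the mean and the whiskers are 1 SD (n = 5), and the circled point is sham 1 week replicate 1. The highest Gfap level (2273 CPM), the highest Vim level (155 CPM) and the lowest Vim level (26.5 CPM) all belong to sham rats.

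None of the comparisons called Gfap changed. All comparisons came from 1 edgeR quasi-likelihood fit over the 30 libraries, with Benjamini-Hochberg adjustment over all 14801 genes and a threshold of 0.05. At 1 week after injury Gfap was at 1.14-fold its level in sham rats of that week, with a 95% interval of 0.929 to 1.39 (log2 fold change 0.18, SE 0.141, edgeR adjusted p = 0.592). In that comparison 53 genes were called, or 0.358% of those tested. With only these 2 groups in the fit the unadjusted p was 0.0333 and the adjusted p 0.298, the lowest over the alternatives, which reached up to 0.792.

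At 3 weeks, against the mean of both sham groups, Gfap was again at 1.14-fold, with an interval of 0.955 to 1.35 (edgeR adjusted p = 0.775). Without sham 12 weeks replicate 4 that log2 fold change went from 0.184 to 0.292 (edgeR unadjusted p = 0.00161, adjusted p = 0.785). With each library left out in turn it ran from 0.126, without SCI 3 weeks replicate 4, up to that value. The 6 weeks value was 0.964-fold, interval 0.809 to 1.15 (edgeR adjusted p = 0.921), against the same sham rats, so the comparisons of 3 and 6 weeks share their reference. At 12 weeks, against sham rats of that week, it was 0.991-fold, interval 0.81 to 1.21 (edgeR adjusted p = 0.997). Removal of sham 12 weeks replicate 4 took the 12 weeks value from -0.013 to 0.205 on the log2 scale (edgeR unadjusted p = 0.0546, adjusted p = 0.993). Its direction also turned without SCI 12 weeks replicate 3, to 0.033, and without SCI 12 weeks replicate 5, to 0.010. Removal of sham 12 weeks replicate 4 also turned the 6 weeks value from -0.053 to 0.053, as leaving out SCI 6 weeks replicate 3 did to 0.008.

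In the comparison of all 20 injured with all 10 sham rats, Gfap was at 1.05-fold, with an interval from 0.931 to 1.19 (edgeR adjusted p = 0.757). Without sham 12 weeks replicate 4 its log2 fold change went from 0.076 to 0.183 (edgeR unadjusted p = 0.0058, adjusted p = 0.406), and without replicates 1, 2 and 5 of that group in turn it was 0.049, 0.047 and 0.034. Replicate 4 had the highest Gfap level of all, so its removal shifts values that use its group in a direction known beforehand. The removal also lowers the spread within its group, which the fit shares among groups. Unadjusted p values without that rat, in any of the Gfap comparisons, are therefore not evidence of a change. Of the 20 injured rats, 15 lay above the sham median and 0 above the highest sham rat. Sham 12 weeks against sham 1 week gave 0.993-fold (interval 0.812 to 1.21, edgeR adjusted p = 0.991). Its log2 value went from -0.011 to -0.231 without sham 12 weeks replicate 4 (edgeR unadjusted p = 0.0311, adjusted p = 0.58). It turned to 0.038, 0.045 and 0.067 without sham 12 weeks replicates 1, 2 and 5 in turn, to 0.029 without sham 1 week replicate 4, and was -0.047 without sham 1 week replicate 2. The injury effect at 12 weeks was 0.872-fold that at 1 week (interval 0.656 to 1.16, edgeR adjusted p = 0.854), a log2 difference of -0.198 that became 0.02 without sham 12 weeks replicate 4. Among the 4 injured groups the joint test gave an F of 1.67 (edgeR adjusted p = 0.816), where 5 genes, or 0.0338%, were called. That F was 3.68 without sham 12 weeks replicate 4, a rat of none of the groups compared (edgeR unadjusted p = 0.0225, adjusted p = 0.639), and 3.29 with only the injured groups in the fit (edgeR unadjusted p = 0.037, adjusted p = 0.833).

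Calls differed in number between the comparisons. At 1 week edgeR called 53 genes, DESeq2 219 and limma-voom 164, and among the 4 injured groups the counts were 5, 29 and 7. The edgeR fit called 0% of genes at 3, 6 and 12 weeks, between the sham groups, in the comparison of all injured with all sham rats and in the difference between the effects at 12 and 1 weeks. At an unadjusted p under 0.05 it held 2061 genes at 1 week, 1052 genes at 3 weeks, 1216 at 6 weeks, 785 at 12 weeks, 1219 between the sham groups, 1931 over all rats, 1240 for the difference between effects and 1057 among the injured groups. In the 6 comparisons without an edgeR call DESeq2 called 1, 1, 0, 2, 16 and 18 genes in the same order, and limma-voom 0 in each but the last, where it called 3. Neither Gfap nor Vim was among the calls of any of these tools, and neither had an unadjusted p under 0.05 in the edgeR fit over all 30 libraries. In none of the comparisons of groups did every rat of one side lie above or below every rat of the other, for either gene. Of all tested genes 3.51% separated in this way at 1 week, 0.122% at 3 weeks, 0.196% at 6 weeks, 0.946% at 12 weeks, 2.17% between the sham groups and 0% over all rats.

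**Figure D2:**
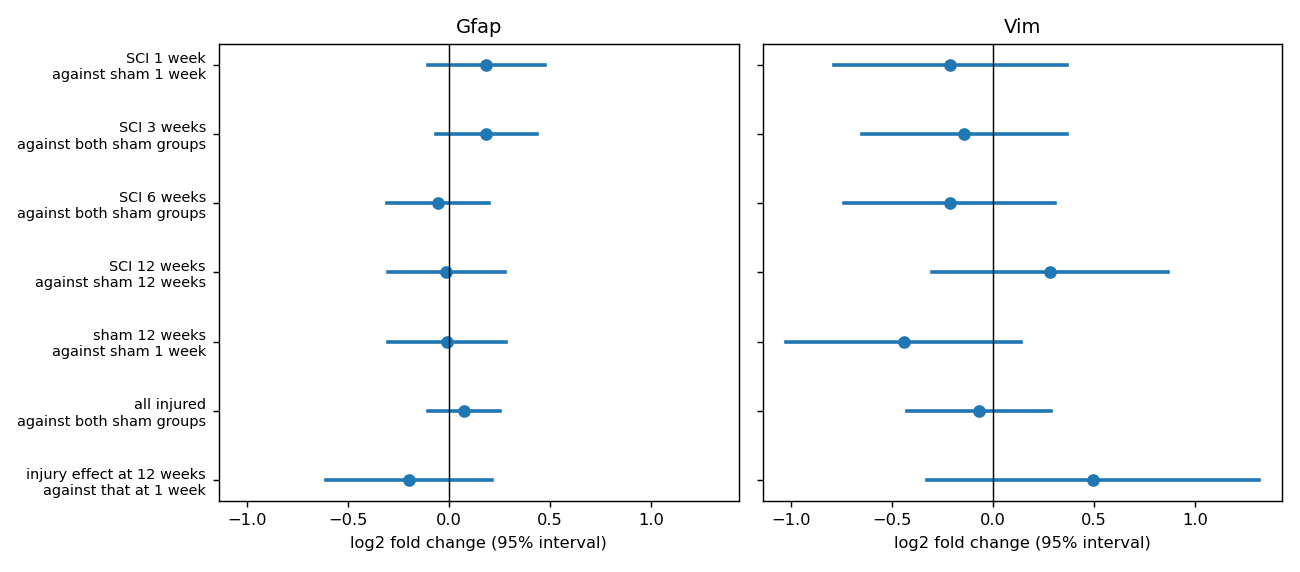
Log2 fold change of Gfap (left) and Vim (right) in each comparison, as points with 95% intervals from the edgeR fit over 30 libraries. All 14 intervals include 0, and those of Vim are wider than those of Gfap in each comparison.

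Vim was less abundant in counts and varied more between rats of the same group. Its mean was 65.1 CPM over the 30 libraries, place 3281 of 14801, with a range of 5.87-fold from 26.5 to 155 CPM, where that of Gfap was 2.03-fold. The SD within groups was 0.45 on the log2 scale for Vim and 0.226 for Gfap, against a median of 0.184 over all tested genes. A larger SD than that of Vim was seen in 14.9% of genes, and than that of Gfap in 38.9%. Counting error was small beside this spread, since the lowest count in any library was 301 for Vim, a counting error of 5.76%, and 9410 for Gfap, an error of 1.03%.

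In sham 1 week the rats had 155, 61.4, 40, 69.1 and 63.7 CPM of Vim. Replicate 1, at 155 CPM, is the library with conflicting labels, and the other 29 rats did not exceed 90.3 CPM. The mean of this group was 77.9 ± 44.7 CPM (SD, n = 5), and 58.6 ± 12.8 over the other 4 rats. SCI 1 week had 60.3, 90.3, 68.9, 64.9 and 51.9 CPM, a mean of 67.2 ± 14.3 that lay between these sham means.

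In SCI 3 weeks the Vim level was 38, 71.3, 74.2, 66.8 and 50.5 CPM, with a mean of 60.2 ± 15.4 CPM (SD, n = 5). In SCI 6 weeks it was 73.6, 55.9, 41, 66.8 and 52.3 CPM, with a mean of 57.9 ± 12.7. The rats of SCI 12 weeks lay close together at 66.6, 63.5, 75.3, 73.2 and 69.9 CPM, with a mean of 69.7 ± 4.78. The coefficient of variation in SCI 12 weeks was 6.85%, against 21.3% to 57.3% in the other 5 groups.

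The sham 12 weeks rats had 70.5, 26.5, 62.9, 64.1 and 64.3 CPM, a mean of 57.6 ± 17.7 CPM (SD, n = 5). Without replicate 2, at 26.5 CPM, the other 4 rats spread as little as the SCI 12 weeks rats, with a coefficient of variation of 5.24%. By mean level the groups ran from sham 1 week through SCI 12 weeks, SCI 1 week, SCI 3 weeks and SCI 6 weeks to sham 12 weeks. Neighbouring ranges overlapped throughout, and only sham 1 week and SCI 12 weeks had means further apart (8.19 CPM) than the smaller SD of the pair (4.78 CPM).

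No comparison called Vim changed either. At 1 week after injury it was at 0.864-fold the level of sham rats, with a 95% interval of 0.58 to 1.29 (log2 fold change -0.21, SE 0.279, edgeR adjusted p = 0.785). Over the alternatives the adjusted p ran from 0.512 to 0.928. The direction rested on sham 1 week replicate 1: the log2 fold change was 0.21 without it (edgeR adjusted p = 0.751) and 0.50 with it counted as injured (edgeR unadjusted p = 0.0828, adjusted p = 0.512).

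At 3 weeks Vim was at 0.907-fold the mean of both sham groups (interval 0.637 to 1.29, edgeR adjusted p = 0.936), and without that library the log2 fold change went from -0.14 to 0.068. At 6 weeks it was at 0.862-fold (interval 0.6 to 1.24, edgeR adjusted p = 0.829), a log2 fold change of -0.21 that shrank to -0.007 without it. At 12 weeks it was at 1.22-fold the level of sham rats of that week (interval 0.812 to 1.83, edgeR adjusted p = 0.937), and 2 of 5 injured rats lay above every sham rat. Sham 12 weeks replicate 2 carried much of that value, since the log2 fold change went from 0.28 to 0.095 without it.

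Over all injured and sham rats Vim was at 0.952-fold (interval 0.744 to 1.22, edgeR adjusted p = 0.898), and its log2 fold change went from -0.07 to 0.138 without sham 1 week replicate 1. Sham 12 weeks was at 0.736-fold of sham 1 week (interval 0.492 to 1.1, edgeR adjusted p = 0.708), a log2 fold change of -0.44 that became -0.026 without that library and -0.254 without sham 12 weeks replicate 2. It grew to -0.615 without sham 1 week replicate 3 (edgeR unadjusted p = 0.0338, adjusted p = 0.632). The effect at 12 weeks was 1.41-fold that at 1 week (interval 0.798 to 2.49, edgeR adjusted p = 0.804), with a log2 difference of 0.495. That difference became 0.078 without sham 1 week replicate 1 and 0.310 without sham 12 weeks replicate 2. Without sham 1 week replicate 3 it was 0.671 (edgeR unadjusted p = 0.0873, adjusted p = 0.736). Among the injured groups the joint F was 0.404 (edgeR adjusted p = 0.958), and 1.06 with only those groups in the fit (edgeR adjusted p = 0.927). The groups accounted for 11.3% of the variance of log2 Vim and 20% of that of log2 Gfap, against a median of 19.2% over all tested genes.

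**Figure D3:**
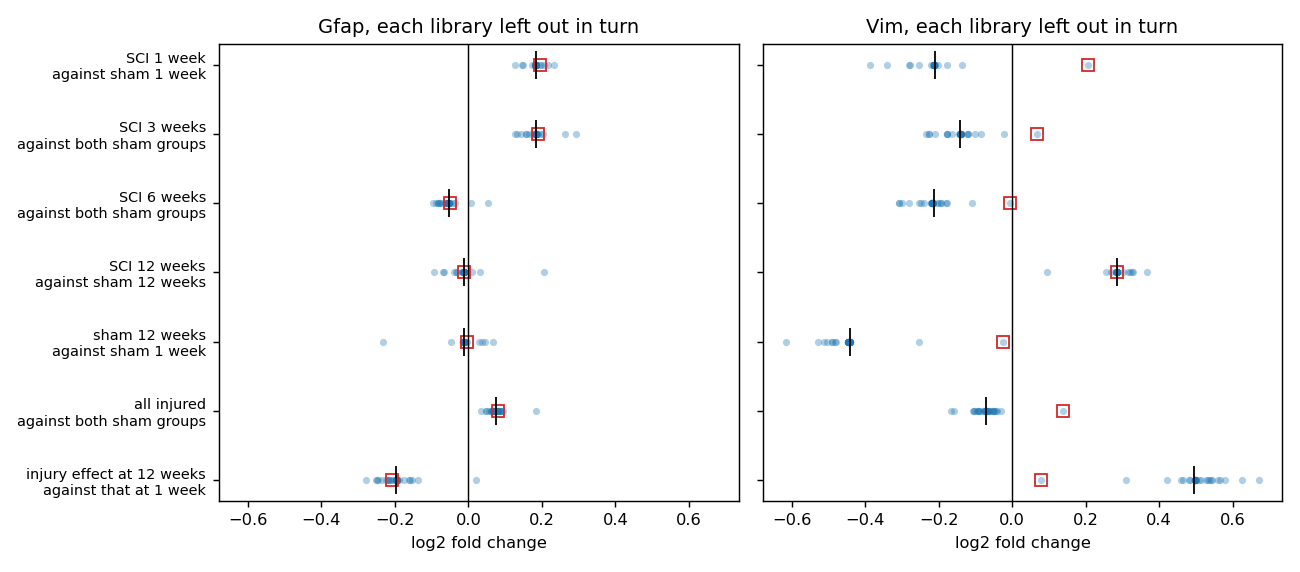
Log2 fold change of Gfap (left) and Vim (right) when each of the 30 libraries is left out in turn; pale points are single omissions, black ticks the values over all libraries and red squares the value without sham 1 week replicate 1. For Vim the red square lies apart in every comparison that uses sham 1 week, for example at 0.21 against -0.21 at 1 week.

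Whether the filament genes varied together from rat to rat was asked across the 30 rats. The Pearson r of log2 CPM was 0.268 (permutation test with 100000 permutations, p = 0.152, adjusted p = 0.456 over 3 correlations) and the Spearman rho 0.176 (permutation p = 0.352). Without the 2 rats farthest from the median of Gfap, both of sham 12 weeks, r was 0.331 over 28 rats (permutation p = 0.0842). Without sham 12 weeks replicate 2, the rat with the least Vim, it was 0.172 (permutation p = 0.367). After the group means were subtracted r was 0.287 (permutation p = 0.123). In the 20 injured rats alone, with group means subtracted, it was 0.442 (permutation p = 0.0516, rho 0.293), and in the 10 sham rats 0.204 (permutation p = 0.534), while the difference between those values was not tested. The permutations did not account for the group means taken out, so the p values after that step are somewhat too low. Both genes are divided by the same library total. Without TMM scaling r was 0.314 (permutation p = 0.092), but that total is still shared there, so this value does not remove its part.

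The rat with the most Gfap, sham 12 weeks replicate 4, had 64.1 CPM of Vim, close to the rest of its group. The library with the most Vim, sham 1 week replicate 1, had 1517 CPM of Gfap, inside the range of its group. Extremes of the filament genes thus fell in different sham rats. The r of Gfap with log2 library total was -0.028 (permutation p = 0.885). For Vim the r with depth was 0.142 (permutation p = 0.449, rho 0.332 with p = 0.0738), and -0.009 once group means were subtracted. Without the 2 totals farthest from the median it was 0.296 over 28 rats (permutation p = 0.125, rho 0.402 with p = 0.0342).

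**Figure D4:**
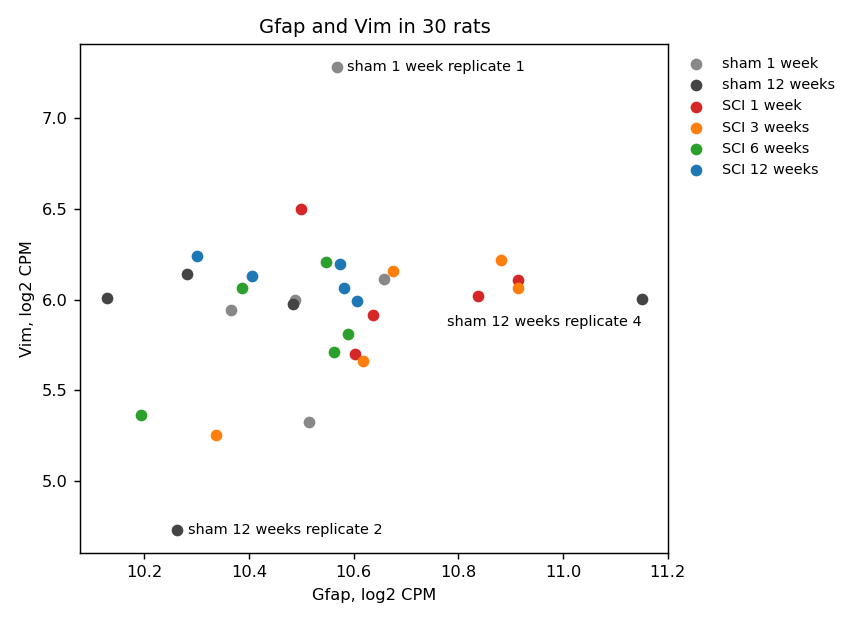
Log2 CPM of Gfap (horizontal) and Vim (vertical) in 30 rats, coloured by group. The sham rats named in the plot hold the highest Gfap, the highest Vim and the lowest Vim level, and the points show a weak relation (r = 0.268). The lowest Gfap level, in sham 12 weeks replicate 5, is not named.

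The ratio of Vim to Gfap counts within a library does not depend on how libraries are scaled. On the log2 scale it averaged -4.39 ± 0.688 (SD, n = 5) in sham 1 week, and -4.69 ± 0.629 in sham 12 weeks. The injured groups had -4.65 ± 0.368 (SCI 1 week), -4.82 ± 0.227 (SCI 3 weeks), -4.63 ± 0.269 (SCI 6 weeks) and -4.37 ± 0.215 (SCI 12 weeks). Since the genes differ in length, these values compare groups and not the amounts of the 2 RNAs. SCI 1 week differed from sham 1 week by -0.263 (exact two-sided permutation test over 252 splits, p = 0.532), and SCI 12 weeks from sham 12 weeks by 0.319 (exact p = 0.365). At 3 and 6 weeks the differences from both sham groups were -0.276 and -0.087 (exact permutation p = 0.383 and 0.776 over 3003 splits). Sham 12 weeks differed from sham 1 week by -0.302 (exact p = 0.532). None passed after adjustment over the 5 tests (lowest adjusted p = 0.665), and each difference was smaller than the larger SD of the groups compared. Without sham 1 week replicate 1 the 1 week difference was 0.012, the 3 weeks difference -0.137, the 6 weeks difference 0.052 and that between the sham groups -0.027. Without sham 12 weeks replicate 2 the 12 weeks difference was 0.108, the 6 weeks difference -0.198 and that between the sham groups -0.091. Without sham 12 weeks replicate 4 the 12 weeks difference was 0.204, the 6 weeks difference -0.155 and that between the sham groups -0.188.

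The identifiers whose levels followed each gene most closely were sought among all 14801 genes over the 30 libraries, after subtraction of group means. For Gfap these were ENSRNOG00000048273 (r = 0.785) and ENSRNOG00000046996 (r = 0.78). Both were highest in sham 12 weeks replicate 4, the rat with the most Gfap, at 1002 and 678 CPM, and without that rat r was 0.697 and 0.637. For Vim they were ENSRNOG00000017469 (r = 0.856) and ENSRNOG00000010841 (r = 0.791), both of low abundance. In sham 1 week replicate 1 the former was at 7.49 CPM, with at most 3.93 in the other 29 rats, and the latter at 16 CPM, with at most 7.11, and without that library r was 0.791 and 0.661. The identifiers were chosen by r over these same libraries, so their peaks in those rats follow in part from the choice. The r values without those rats also come after that choice. Vim itself came 2047th among the genes most like Gfap, and Gfap 1436th among those most like Vim, each with r = 0.287. An r above 0.5 was reached by 1.76% of genes with Gfap and by 1.18% with Vim.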

How the data were processed

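The authors deposited a table of whole-number counts for each rat, without normalization. The tools listed in the submitters' processing notes are STAR 2.5.3a, Subread 1.2.6, featureCounts, Trimmomatic and bcl2fastq 2.19.05, and the build listed is Rnor_6.0, without their roles. Neither the annotation release nor the strand setting of the counting is stated in those notes or in the labels. Members and lists were chosen with earlier results of these data known. The symbols of the 2 identifiers came with their selection. The reference table (GRCr8) matched 0 of the 32545 identifiers, so the lists of astrocyte, reactive and other cell type markers were not run and other genes are given by identifier. Levels are CPM after TMM scaling, computed from the counts.

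Groups and replicate numbers came from the titles. Counts were tested with edgeR 4.0.16 in R 4.3.3 (TMM, filterByExpr, robust quasi-likelihood fit, 6 groups, no covariate), which kept 14801 genes, both members included. Each SE was the absolute log2 fold change divided by the root of F. Log2 CPM used a prior count of 2 and log2 ratios of counts a pseudocount of 0.5. Correlations and exact tests used scipy 1.17.1 and numpy 2.4.6 in Python 3.11.15. The tests were tried on simulated data. Named genes were to be Gfap, Vim and, without symbols, the 2 identifiers most correlated with each. Alternatives were DESeq2 size factors, no filter, DESeq2 1.42.0, limma-voom (limma 3.58.1), the replicate number as a block, library size as a covariate, sham 1 week replicate 1 left out or counted as injured, only the compared groups, without the 4 libraries under 9 M counts, either sham group alone as reference, and each library left out. Correlations within injured and within sham rats were added after the data were seen. No 2 libraries held identical counts. The labels name no batch that differs between libraries.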

Additional observations from a re-analysis of the deposited data

Results flagged for a closer look

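In 18 sets of 5 rats (Gfap, Vim and their log2 count ratio in each group) a rat far from the others was sought by dividing the distance to its closest neighbour by the group's whole range. It was found in 4 sets, where chance at 1 in 20 gives 0.9. That figure assumes normally distributed values, and the ratio is made from the same counts as the genes. The sets are therefore not independent, and 4 against 0.9 is not a test of an excess. Gfap in sham 12 weeks replicate 4 stood at 2273 CPM, with the other 4 rats between 1119 and 1432. Vim in sham 1 week replicate 1 stood at 155 CPM, with the others between 40 and 69.1, and this is the library whose labels conflict and in which 25 genes exceeded every other library by 2-fold or more. Vim in sham 12 weeks replicate 2 stood at 26.5 CPM, with the others between 62.9 and 70.5. The log2 count ratio of Vim to Gfap in SCI 1 week replicate 2 was -4.003, with the others between -4.905 and -4.724, and this rat combined the lowest Gfap (1447 CPM) with the highest Vim (90.3 CPM) of its group. On the log2 scale only the low Vim value of sham 12 weeks replicate 2 stayed past the critical gap among the 12 sets of single genes.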

How the results depend on the processing

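Over 726 alternative values of 22 results none passed the threshold and 24 changed sign. The joint F values among them have no sign to change. Many others leave out a library of no group in the comparison, so 24 of 726 does not measure how stable the signs are. With limma-voom, Gfap at 12 weeks was 0.027 and Vim over all rats 0.048 on the log2 scale. With sham 1 week replicate 1 counted as injured, Vim was 0.497 at 1 week, 0.069 at 3 weeks, 0.211 over all rats and -0.212 for the effect at 12 weeks against that at 1 week. With sham 12 weeks alone as reference, Vim was 0.08 at 3 weeks and 0.007 at 6 weeks. Rats of different groups with the same replicate number had a median r of 0.007 over 75 pairs (-0.153 to 0.146). For pairs with different numbers the median was -0.001. An r above 0.1 was seen in 8 of the 75 pairs, and its share among pairs with different numbers was not counted. With the replicate number as a block Gfap at 12 weeks was 0.015, with no other change of sign and no call. With each library left out, Gfap ran from -0.096 to 0.053 at 6 weeks, -0.093 to 0.205 at 12 weeks, -0.231 to 0.067 between the sham groups and -0.278 to 0.02 for the effect at 12 weeks against that at 1 week. Vim ran from -0.386 to 0.207 at 1 week, -0.234 to 0.068 at 3 weeks and -0.166 to 0.138 over all rats. The log2 count ratio ran from -0.464 to 0.012 at 1 week and from -0.198 to 0.052 at 6 weeks. Where single libraries turned a sign, the cause was not tested. How depth bears on the width of the intervals was not tested.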
